A study of Mus musculus with 16 samples.

Results

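The collagen genes of the mouse are described here through their open chromatin in male germ cells. They were chosen by name from the gene annotation deposited with the peak lists: a gene belonged if its symbol was Col, a number, a and a number, and if it lay on chromosomes 1 to 19. This gave 42 genes of 21325 genes with a transcription start site (TSS). Names and not peak heights defined the set, but a gene could be found only if at least 1 peak of the series had been assigned to it, and the family was proposed with earlier results of these libraries known. The counts below therefore describe these libraries.

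ATAC-seq marks accessible DNA with the Tn5 transposase. The series holds 16 such libraries from C57BL/6 testis, made from 4 purified cell types of mice that were wild type or lacked Scml2 (Scml2-KO), with 2 libraries in each of 8 groups. The early cells were taken at postnatal day 7 (P7) from mice of either genotype: Thy1+ spermatogonia (Thy1), which include the stem cells, and c-Kit+ spermatogonia (cKit), which have begun to differentiate. Pachytene spermatocytes (PS), in meiotic prophase, and round spermatids (RS), the haploid cells after meiosis, came from adult mice of either genotype. SCML2 is a germline protein related to the Polycomb group. The labels say neither how the knockout allele was made nor how many animals went into a library, so p-values measure the spread between libraries, which may be technical. Spermatogonia were taken only at P7 and the later cells only from adults, and stage and age cannot be told apart. A reaction held 500000 cells for Thy1 and cKit, 250000 for PS and 1000000 for RS. Except between Thy1 and cKit, cell number per reaction and stage cannot be told apart either.

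Collagens are secreted triple-helical proteins that build the extracellular matrix. Fibrillar collagens make the fibres of connective tissue, FACIT collagens sit on the surface of those fibres, type IV collagens form the sheet of basement membranes, and type VI collagens make beaded filaments next to cells. Transmembrane collagens are anchored in the plasma membrane, and multiplexins are found in basement membrane zones. In the testis a basement membrane rich in type IV collagen surrounds each seminiferous tubule, and spermatogonia lie against it. Sertoli and peritubular myoid cells are its known makers.

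Sequences of some collagen promoters are shown to make the classes of accessibility visible. They are the 250 bases before the RefSeq start site (GRCm38.p6, the mm10 build), read in the direction of transcription, with every CG dinucleotide in capitals. Col25a1 (chr3:130180595-130180844, + strand) and Col23a1 (chr11:51289670-51289919, + strand) had a promoter peak in all 16 libraries. Col3a1 (chr1:45311288-45311537, + strand), Col19a1 (chr1:24587438-24587687, - strand) and Col6a4 (chr9:106096692-106096941, - strand) had one in spermatogonial libraries and in 0 adult libraries. Col10a1 (chr10:34389731-34389980, + strand) and Col17a1 (chr19:47692043-47692292, - strand) had one in 0 libraries. The last line is the 71 bases that separate the start sites of the divergent genes Col4a4 and Col4a3 (chr1:82586850-82586920, + strand).
Col25a1: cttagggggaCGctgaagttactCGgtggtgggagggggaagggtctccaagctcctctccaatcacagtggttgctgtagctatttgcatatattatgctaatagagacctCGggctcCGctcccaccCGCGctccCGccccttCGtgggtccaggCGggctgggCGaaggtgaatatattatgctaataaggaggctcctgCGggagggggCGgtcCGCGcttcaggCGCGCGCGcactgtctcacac
Col23a1: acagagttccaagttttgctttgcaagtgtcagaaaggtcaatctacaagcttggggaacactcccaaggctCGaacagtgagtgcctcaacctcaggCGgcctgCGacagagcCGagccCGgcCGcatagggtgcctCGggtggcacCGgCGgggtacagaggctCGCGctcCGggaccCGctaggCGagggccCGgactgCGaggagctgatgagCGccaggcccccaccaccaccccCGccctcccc
Col3a1: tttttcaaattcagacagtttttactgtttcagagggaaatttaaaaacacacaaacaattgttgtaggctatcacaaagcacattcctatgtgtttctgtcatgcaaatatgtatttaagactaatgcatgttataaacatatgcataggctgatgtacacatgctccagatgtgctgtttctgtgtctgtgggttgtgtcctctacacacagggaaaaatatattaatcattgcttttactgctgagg
Col19a1: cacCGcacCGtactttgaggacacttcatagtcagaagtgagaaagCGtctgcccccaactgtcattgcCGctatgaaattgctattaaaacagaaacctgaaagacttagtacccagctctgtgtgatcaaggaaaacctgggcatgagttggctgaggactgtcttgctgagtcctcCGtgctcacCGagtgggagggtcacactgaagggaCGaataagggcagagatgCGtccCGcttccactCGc
Col6a4: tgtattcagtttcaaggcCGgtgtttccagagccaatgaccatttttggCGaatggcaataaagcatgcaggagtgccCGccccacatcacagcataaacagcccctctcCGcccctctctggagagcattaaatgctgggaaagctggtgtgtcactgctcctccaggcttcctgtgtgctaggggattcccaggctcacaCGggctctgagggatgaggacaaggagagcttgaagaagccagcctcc
Col10a1: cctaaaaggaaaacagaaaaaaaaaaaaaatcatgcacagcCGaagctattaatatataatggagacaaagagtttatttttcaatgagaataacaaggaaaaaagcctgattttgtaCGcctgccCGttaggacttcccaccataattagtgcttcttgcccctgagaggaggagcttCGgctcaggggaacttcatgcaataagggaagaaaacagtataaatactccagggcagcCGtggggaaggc
Col17a1: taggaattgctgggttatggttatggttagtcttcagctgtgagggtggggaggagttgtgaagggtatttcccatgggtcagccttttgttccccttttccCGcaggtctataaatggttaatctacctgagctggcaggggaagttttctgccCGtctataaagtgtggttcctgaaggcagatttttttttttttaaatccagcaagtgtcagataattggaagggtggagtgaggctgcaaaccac
Col4a4 to Col4a3: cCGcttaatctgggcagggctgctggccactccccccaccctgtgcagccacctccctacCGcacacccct

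Of the 42 genes, 33 were found in the RefSeq promoter table. Col25a1 and Col23a1, the 2 matched genes with a peak in every library, held 18 CG dinucleotides each in these 250 bases. The 9 matched genes that were called higher in spermatogonia (below, by a test over all genes) held 0 to 17, with a median of 9. Col3a1 held 0 and Col19a1 held 10. The 4 matched genes with no promoter peak in any library held 0 to 5, with a median of 1. Over the first listed promoter of each of 27025 genes in the table the median was 6. The 11 matched genes with a peak in all 8 spermatogonial libraries had 7 to 31 CG dinucleotides, with a median of 18. These numbers are a description, and no test was made on them.

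**Figure D1:**
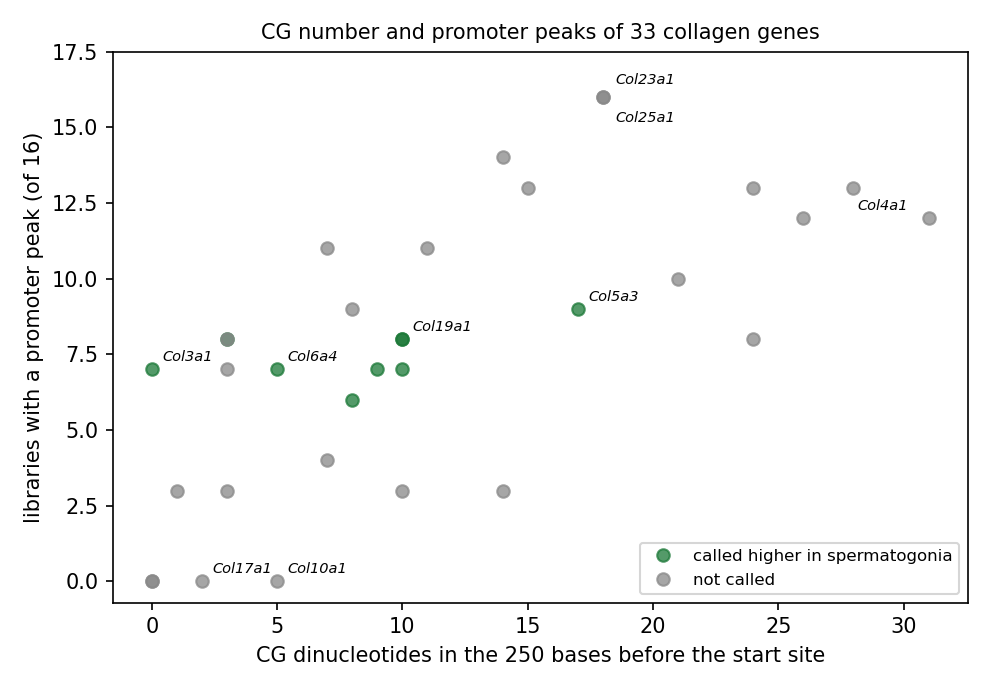
Number of CG dinucleotides in the 250 bases before the RefSeq start site (x axis) and number of libraries, of 16, with a promoter peak (y axis) for the 33 matched collagen genes, 1 point per gene. For Col18a1 the CG number is that of 1 of its 2 deposited start sites. Green points are genes called higher in spermatogonia; Col25a1 and Col23a1 share the point at 18 CG dinucleotides and 16 libraries, and the genes with 0 libraries lie at 0 to 5 CG dinucleotides.

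Short motifs (3 in all) were searched in the same 250 bases on both strands: GGGCGG, the core of sites bound by Sp-family factors, which itself holds a CG, CCAAT, bound by NF-Y, and TATAAA, the core of the TATA box. GGGCGG was found before 18 of the 33 collagen genes (54.5%), against 32.9% of the 27025 promoters. CCAAT was found before 10 (30.3%, against 34.5%) and TATAAA before 5 (15.2%, against 13%). The bases of these shares differ: the start site nearest to the deposited TSS for collagens, the first listed one for the 27025 genes. The 33 collagens also held more CG dinucleotides, with a median of 10 against 6. Whether the GGGCGG share differs from that of promoters with a like CG number was not tested. In Col10a1, TATAAA began 32 bases before the start site, and the promoter had no peak in any library. Col3a1 had neither GGGCGG nor CCAAT. A match describes the letters and is not a site.

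A gene was counted as having a promoter peak in a library where a deposited peak reached, by 1 bp or more, into the window from 1 kb before to 1 kb after a TSS. Peaks were called by the authors in each library separately, and a missing peak says that none passed the caller's threshold there, not that the chromatin was closed. The lists held 17813 to 164060 peaks. Fewer than 30000 were in 4 of them (cKit Scml2-KO replicate 2, PS wild type replicate 2, PS Scml2-KO replicate 2 and RS Scml2-KO replicate 2). Fold enrichment is the authors' own value of a peak and is used here only to describe and rank peaks within a list. Since every library is bulk, fewer cells with an accessible promoter and less signal per cell cannot be told apart.

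Collagen promoters had peaks in most spermatogonial libraries and in few adult ones. In Thy1 libraries 79.2% ± 7.62 (SD, n = 4) of the 42 genes had a promoter peak, and in cKit libraries 62.5% ± 20 (SD, n = 4). The share was 25% ± 9.62 (SD, n = 4) in PS and 32.1% ± 5.67 (SD, n = 4) in RS. Over all 21325 genes the same shares were 70.3%, 62.6%, 60.9% and 60%. The 8 spermatogonial libraries ranged from 35.7% to 85.7% of collagens with a median of 73.8%, and the 8 adult libraries from 16.7% to 35.7% with a median of 33.3%. The highest adult libraries and the lowest spermatogonial library, cKit Scml2-KO replicate 2, had the same 15 of 42 genes in number (35.7%, Wilson 95% interval 23 to 50.8%, counting error only). That library also had the shortest list, and 50.8% of all its genes had a promoter peak. Every adult library had a lower share of collagens than of all genes, by 19.3 to 39.4 percentage points, whereas 7 of 8 spermatogonial libraries had a share as high or higher.

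**Figure D2:**
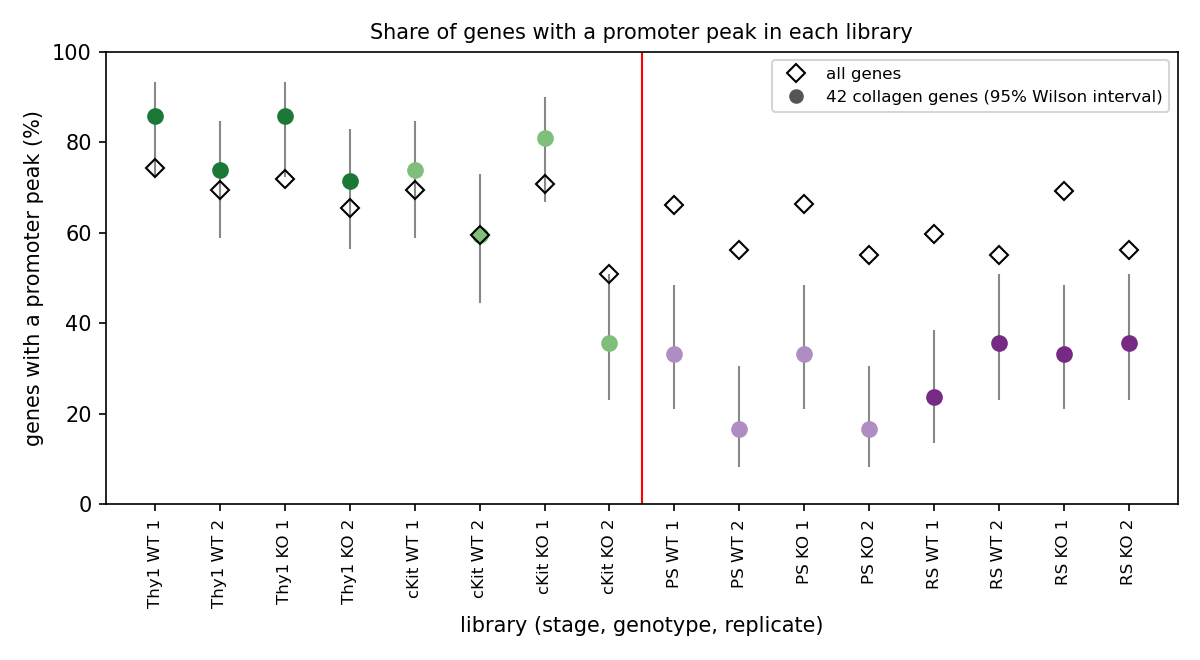
Share of genes with a promoter peak (y axis, percent) in each of the 16 libraries (x axis), for the 42 collagen genes (filled circles, coloured by stage, with Wilson 95% intervals) and for all genes (open diamonds); the red line separates P7 spermatogonia from adult cells. All 8 adult libraries have a collagen share, 16.7% to 35.7%, below that of all genes.

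Each gene was tested for a difference in the number of libraries with a promoter peak between the 8 spermatogonial and the 8 adult libraries, by a two-sided Fisher's exact test with Benjamini-Hochberg adjustment over the 3915 genes with peaks in 5 to 11 of the 16 libraries. Among all 21325 genes, 4.54% were called higher in spermatogonia and 1.56% higher in adult cells (24.7% and 8.48% of those tested). Of the 42 collagens, 23 were in the tested range, 12 were called higher in spermatogonia and 0 higher in adult cells. Before adjustment, 1 collagen with more adult libraries had a p under 0.05 in this exact test, Col9a3 (p = 0.0256). More spermatogonial than adult libraries had a peak for 32 of 42 collagens (76.2%, against 27% of all genes), and fewer for 3 (7.14%, against 16.1%). The median difference over the family was 4 libraries, against 0 over all genes. A promoter peak was found in 0 adult libraries for 16 collagens (38.1%, against 22.4% of all genes). Without cKit Scml2-KO replicate 2 the number of called collagens was 20, of which 1 was higher in adult cells. Calls over all genes in either direction rose from 1300 to 2411 in that setting. With the 4 against 4 libraries of Scml2-KO alone 0 collagens were called, as for all genes. The wild-type libraries alone gave 11 collagens and 911 of all genes.

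Some of the 12 calls depended on how peaks were counted. When every list was cut to its 17813 best peaks, Col3a1, Col5a2, Col5a3, Col6a4, Col12a1 and Col19a1 were called as before. Col4a3 and Col4a4 then had 3 against 0 libraries, Col6a1 2 against 0, Col8a1 1 against 0, and Col6a5 and Col9a2 no peak at all. In their place Col1a1 (5 against 0), Col1a2 (7 against 0), Col11a1 (8 against 0), Col5a1, Col4a1 and Col4a2 (7 against 1 each) and Col6a2 (5 against 0) were called, all higher in spermatogonia, with adjusted p of 0.00132 to 0.0433 (Fisher's exact test). Calls over all genes rose from 1300 to 2126 with these cut lists. The limit to 5 to 11 libraries was also dropped, leaving out only genes with a peak in 0 or in all 16 libraries. Col12a1, Col6a5, Col6a1 and Col8a1 then missed the threshold, with adjusted p of 0.0617 for the first pair and 0.0761 for the second (Fisher's exact test). Col9a2 missed it when only peaks with a −log10 q of at least 5 (adjusted p = 0.0534) or a fold of at least 5 (adjusted p = 0.0503, Fisher's exact test) were counted, with 5 against 0 libraries in both. Under the former limit Col6a5 had 4 against 0 and was no longer tested. Col8a1, with 4 against 1 wild-type libraries, was not tested in wild type alone.

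**Figure D3:**
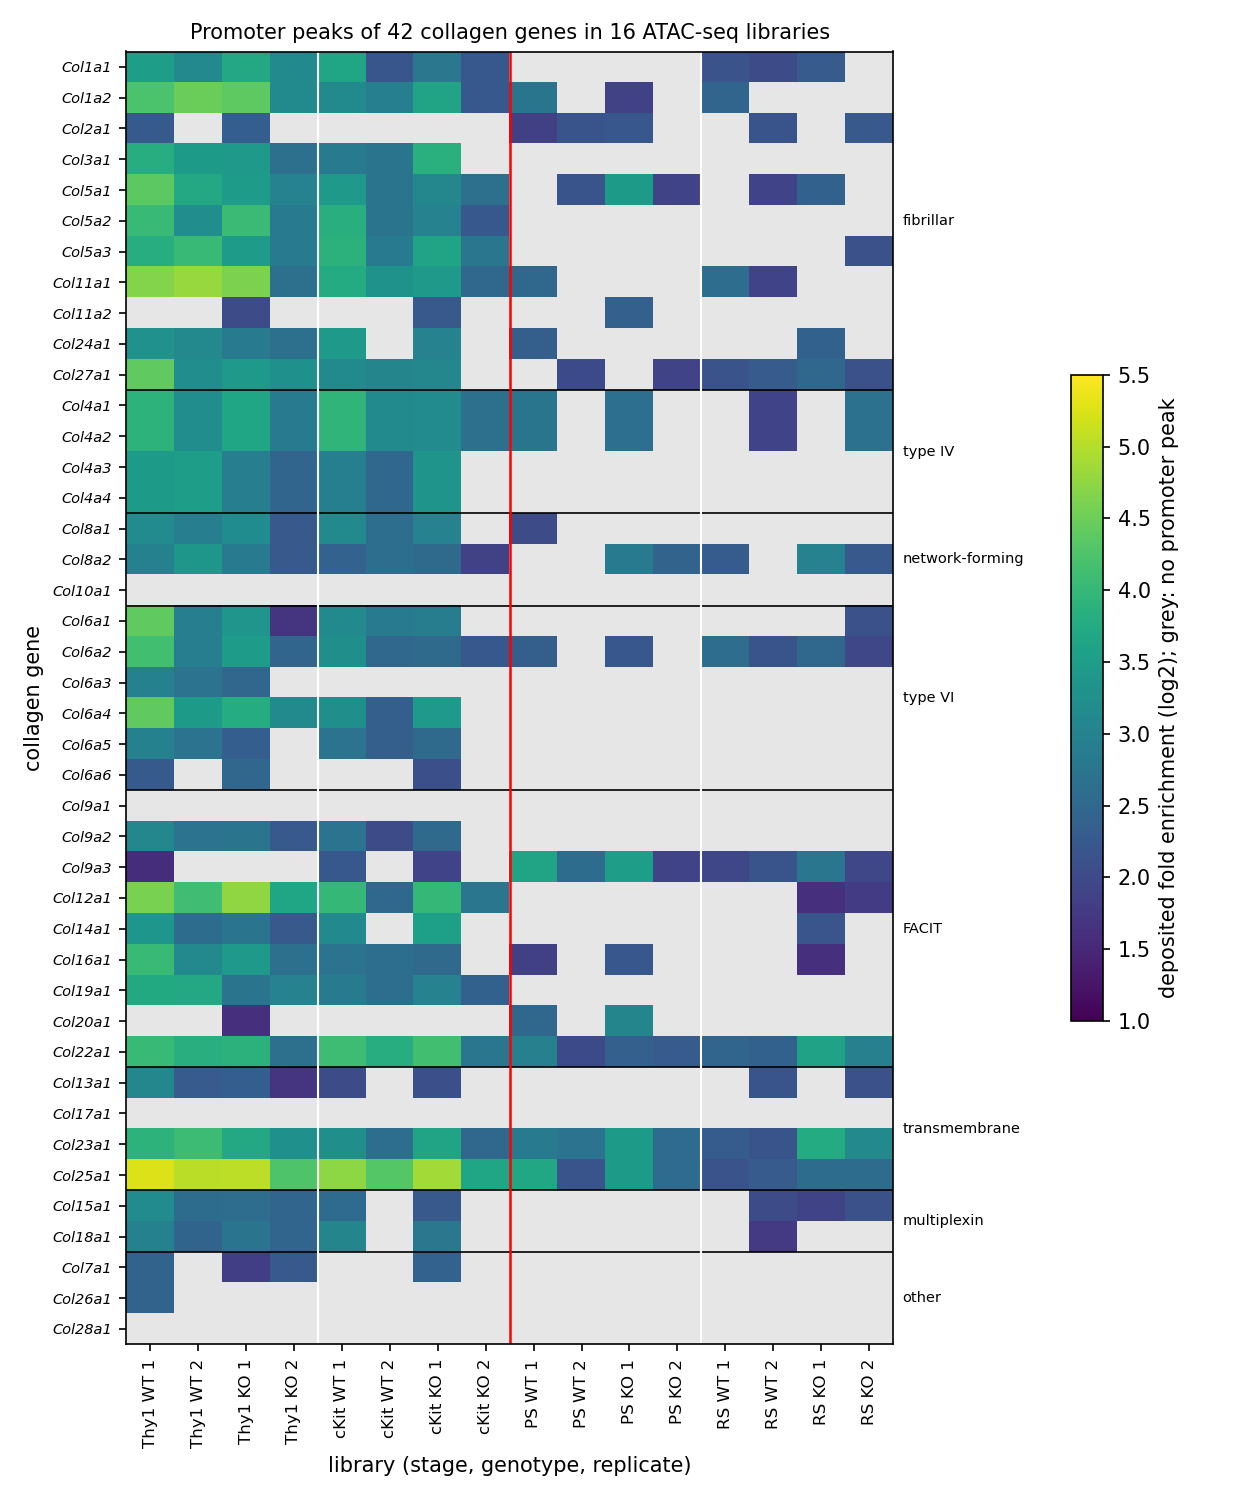
Deposited fold enrichment (log2 colour scale) of the promoter peak of each collagen gene (rows, grouped by class) in each library (columns); grey means that no promoter peak was listed, and the red line separates P7 spermatogonia from adult cells. Col22a1, Col23a1 and Col25a1 have a peak in all 16 libraries, and Col5a2 and Col19a1 in the 8 spermatogonial libraries only.

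Among the 11 fibrillar collagens, 3 were called higher in spermatogonia and 0 higher in adult cells. Their share with a promoter peak was 88.6% ± 8.7 in Thy1, 75% ± 15.5 in cKit, 29.5% ± 8.7 in PS and 36.4% ± 7.42 in RS (SD, n = 4 each). Col5a2, a chain of type V collagen, which helps to start fibrils (chromosome 1, TSS at 45503282), had a peak in 8 of 8 spermatogonial libraries and 0 of 8 adult libraries (adjusted p = 0.00358, Fisher's exact test). Its folds were 4.72 to 16.8 in the spermatogonial libraries. Among all genes 0.53% had this pattern of 8 against 0, and Col19a1 was the other collagen with it. Col3a1, the chain of type III collagen of soft connective tissue (chromosome 1, TSS at 45311538), had folds of 13.9 and 10.9 in the wild-type and 10.7 and 6.36 in the Scml2-KO libraries of Thy1. In cKit they were 7.12 and 6.68 in wild type and 14.4 in Scml2-KO replicate 1. The other cKit Scml2-KO library and all 8 adult libraries had no peak (7 against 0, adjusted p = 0.00877, Fisher's exact test). Col5a3, another type V chain (chromosome 9, TSS at 20815034), had folds of 6.82 to 16.4 in 8 spermatogonial libraries and 4.33 in RS Scml2-KO replicate 2 (8 against 1, adjusted p = 0.00877, Fisher's exact test).

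The type I collagen genes, which make the most abundant fibres of the body, missed the threshold. Col1a1 (chromosome 11, TSS at 94936270) had a peak in all 8 spermatogonial libraries with folds of 4.63 to 13.2 (median percentile 26 among the promoter folds of the same list). It had none in PS and folds of 4.43 and 4.13 in RS wild type and 4.92 in RS Scml2-KO replicate 1. Its peak summits lay 786 bp downstream of the TSS in the median, inside the gene. Col1a2 and Col11a1 also had 8 spermatogonial and 3 adult libraries with a peak, so that the adjusted p of all 3 was 0.0545 (Fisher's exact test). Col5a1 had 8 against 5, Col27a1 7 against 6, Col24a1 6 against 2 and Col11a2 2 against 1. Col2a1, the collagen of cartilage, went the other way in number, with 2 Thy1, 0 cKit, 3 PS and 2 RS libraries (adjusted p = 0.395, Fisher's exact test).

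All 4 autosomal type IV genes had a promoter peak in every Thy1 library, and the share was 87.5% ± 25 in cKit, 25% ± 28.9 in PS and 25% ± 28.9 in RS (SD, n = 4 each). They are 2 divergent pairs, and in each pair the same peaks served both genes, which therefore count as 1 measurement. Col4a3 and Col4a4, chains of specialised basement membranes, have start sites 72 bp apart on chromosome 1, as the 71-base sequence above shows. Both were called, with 7 spermatogonial and 0 adult libraries (adjusted p = 0.00877, Fisher's exact test). Their folds in the 4 Thy1 libraries were 10.9, 11.5, 7.64 and 5.56, wild type first. In cKit they were 7.71 and 5.65 in wild type and 10.1 in Scml2-KO replicate 1. Col4a1 and Col4a2, the chains of nearly all basement membranes, have start sites 3 bp apart on chromosome 8. They had a peak in 8 spermatogonial libraries (folds 6.29 to 15.4) and in 4 adult libraries. The adult folds were 6.71 in PS wild type replicate 1, 6.24 in PS Scml2-KO replicate 1, 3.76 in RS wild type replicate 2 and 6.5 in RS Scml2-KO replicate 2. With peaks in 12 libraries they lay outside the tested range. The other type IV genes, Col4a5 and Col4a6, are X-linked and outside the family as defined. They had 7 against 2 and 6 against 1 libraries, both with an adjusted p of 0.0719 (Fisher's exact test).

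Of the 6 type VI genes, 3 were called, and all 6 had more spermatogonial than adult libraries. The class share was 83.3% ± 23.6 in Thy1, 58.3% ± 28.9 in cKit, 8.33% ± 9.62 in PS and 20.8% ± 8.33 in RS (SD, n = 4 each). Col6a1 (chromosome 10, TSS at 76726044), a chain of the main type VI molecule, had folds of 3.18 to 21.1 in 7 spermatogonial libraries and 4.33 in RS Scml2-KO replicate 2 (adjusted p = 0.0304, Fisher's exact test). It fell out of the calls with a promoter window of 2 kb (7 against 2, adjusted p = 0.0742, Fisher's exact test). Col6a2, its partner chain, had a peak in 8 spermatogonial and 6 adult libraries and lay outside the tested range. Col6a3, the third chain of that molecule, had a peak in 3 Thy1 libraries only. The genes Col6a4, Col6a5 and Col6a6 encode chains that can take the place of Col6a3. Col6a4 (chromosome 9, TSS at 106096691) had folds of 5.14 to 21.1 in 7 spermatogonial libraries, and Col6a5 (chromosome 9, TSS at 105960643) folds of 5.09 to 7.84 in 6. Neither had a peak in an adult library (adjusted p = 0.00877 and 0.0246, Fisher's exact test). Col6a6 had one in 2 Thy1 libraries and 1 cKit library.

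The 3 network-forming genes were unlike one another. Col8a1 (chromosome 16, TSS at 57754737), a chain of the type VIII collagen found around blood vessels, had folds of 4.77 to 9.17 in 7 spermatogonial libraries and 4.13 in PS wild type replicate 1 (adjusted p = 0.0304, Fisher's exact test). Col8a2, the other type VIII chain, had 8 spermatogonial and 5 adult libraries with a peak. Col10a1, the collagen of hypertrophic cartilage, had none.

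FACIT collagens split in 3 ways. Called higher in spermatogonia were 3 of 9. Col19a1 (chromosome 1, TSS at 24587437) had folds of 13.3, 13.1, 6.62 and 7.95 in Thy1 and of 7.12, 6.17, 7.99 and 5.24 in cKit, wild type first, and no peak in adult cells (8 against 0, adjusted p = 0.00358, Fisher's exact test). Col9a2 (chromosome 4, TSS at 121039566), a chain of the cartilage collagen IX, had folds of 4.11 to 8.44 in 7 spermatogonial libraries and none in adult ones (adjusted p = 0.00877, Fisher's exact test). Col12a1 (chromosome 9, TSS at 79718678), found on type I fibres, had folds of 24.1, 17.4, 27 and 12.7 in the 4 Thy1 libraries. In cKit they were 16, 5.65, 16 and 6.82, and only RS Scml2-KO had peaks among adult groups, at 3.03 and 3.46 (8 against 2, adjusted p = 0.0246, Fisher's exact test). The adult folds of Col12a1 lay at the 0.464 and 0.853 percentiles of their lists, and the spermatogonial ones at 17.1 to 81.1.

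Col22a1 (chromosome 15, TSS at 72034227), a collagen of tissue junctions, had a promoter peak in all 16 libraries, with folds of 6.36 to 17.6 in spermatogonia and 4.02 to 12.1 in adult cells. Col9a3, a partner of Col9a2 in collagen IX, also had a peak in all 8 adult libraries but in few spermatogonial ones. It had peaks in 1 Thy1, 2 cKit, 4 PS and 4 RS libraries, with folds of 12.4, 6.03, 11.4 and 3.8 in PS and 3.88, 4.51, 6.81 and 3.9 in RS. The spermatogonial folds were 3.01, 4.75 and 3.73, and the difference missed the threshold over genes (3 against 8, adjusted p = 0.0545, Fisher's exact test). Col9a1, the third chain of collagen IX, had no promoter peak in any library at its 1 deposited TSS. RefSeq lists another start site 17593 bp away, which was not scored. By these counts the 3 chains of 1 molecule had 3 different patterns. Of the others, Col14a1 had 6 against 1 libraries, Col16a1 7 against 3 and Col20a1 1 against 2.

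Transmembrane collagens held the highest fold of the family, in Col25a1, and 0 calls in the test over genes. Col25a1, a neuronal collagen (chromosome 3, TSS at 130180845), had folds of 38.6, 32.7, 33.1 and 19.1 in Thy1 and 26.7, 20, 29.3 and 12.6 in cKit. In PS they were 12.9, 4.52, 10.9 and 5.98, and in RS 4.43, 4.88, 6.05 and 6.06. Ranked within its own list, its peak had a median percentile of 90.6 in spermatogonia (83.1 to 92) and of 17.3 in adult cells (5.74 to 43), and these ranges did not overlap. Of the 8333 genes with a peak in all 16 libraries, 7.8% had every spermatogonial percentile above every adult one. A gene with a peak in every library gives the test on presence nothing to compare, so this shift in rank is a description. Col23a1 (chromosome 11, TSS at 51289920) also had a peak in all 16, at a median percentile of 40.1 in spermatogonia and 21.9 in adult cells, where the ranges overlapped (22 to 55.1 and 11.3 to 52.9). Col13a1 had 6 against 2 libraries, and Col17a1, an epidermal collagen, had none.

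Both multiplexins had peaks in all 4 Thy1 libraries, in 2 cKit and in 0 PS libraries. Col15a1 then had 3 RS libraries with a peak and Col18a1 had 1, and neither was called in the test over genes (adjusted p = 0.395 and 0.0719, Fisher's exact test). Col7a1, the anchoring fibril collagen of skin, had peaks in 3 Thy1 libraries and 1 cKit library, Col26a1 in 1 Thy1 library and Col28a1 in none. Col10a1, Col9a1, Col17a1 and Col28a1 were the 4 members with no promoter peak in the series.

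The median collagen peak ranked below the median of all promoter peaks in every list, and lower in adult cells than in spermatogonia. The median percentile of the collagen promoter folds among all promoter folds of the list was 22 to 31 in the 8 spermatogonial libraries, with a median of 27. In the 8 adult libraries it was 5.74 to 17.7, with a median of 12.3, and the 2 sets did not overlap. Only genes with a peak enter these values, so the genes behind them differ from list to list.

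The steps between consecutive stages compare 4 with 4 libraries, for which the smallest two-sided exact p is 0.0286, and only genes with a peak in all 4 libraries of one stage and 0 of the other are counted. From Thy1 to cKit, 0 collagens lost and 0 gained a peak in this sense (0.239% and 0% of all genes). From cKit to PS, 5 collagens had a peak in 4 of 4 cKit and 0 of 4 PS libraries: Col1a1, Col5a2, Col5a3, Col12a1 and Col19a1 (1.31% of all genes). None had the opposite pattern (1.05% of all genes). Without cKit Scml2-KO replicate 2 the number of collagens with a peak in all cKit and 0 PS libraries was 12. Over all genes, those separated in either direction then rose from 503 to 884. From PS to RS the counts were 0 and 0 (0.197% and 0.122% of all genes). Col1a1 and Col15a1 came nearest, with 0 PS and 3 RS libraries.

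Scml2-KO and wild-type libraries had like numbers of collagen promoter peaks, 20.6 ± 11 and 21.1 ± 11 of 42 genes (SD, n = 8 each). An exact conditional test that permutes the genotype labels within each stage (two-sided) could reach p = 0.05 in 811 genes. It called 0% of them after adjustment, and 14 (1.73%) had an unadjusted p of 0.05 or under. Among collagens only Col2a1 was in that range (p = 1 by this exact test, 3 Scml2-KO and 4 wild-type libraries), and the other members could not be tested. A single stage has 2 libraries per genotype, and the smallest exact two-sided p is then 0.333. Here only genes with 2 peaks in one genotype and 0 in the other were counted.

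In Thy1 the number of collagens with such a pattern was 0 in either direction (0.0703% of all genes with Scml2-KO only and 0.788% with wild type only), and in cKit also 0 (0.113% and 0.122%). In PS, Col8a2 had a peak in both Scml2-KO libraries, with folds of 7.28 and 5.43, and in neither wild-type library (0.661% of all genes), and 0 collagens had the reverse (0.863%). In RS, Col12a1 had a peak in both Scml2-KO libraries only (2.28% of all genes) and Col11a1 in both wild-type libraries only, at 6.09 and 3.76 (0.399%). Across all genes these patterns were found in the percentages given, and no test was made.

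Peaks of all libraries that overlapped were merged into 367750 regions, and 1452 of them (0.395%) carried the name of a collagen gene in the authors' annotation. By that annotation 818 lay in introns, 312 were intergenic, 139 exonic, 130 upstream and 53 in promoters. A gene had 4 to 104 regions, with a median of 29.5. Col22a1 had the most and Col11a2 the fewest. Of single peaks, 0.448% ± 0.111 (SD, n = 8) of a spermatogonial list and 0.233% ± 0.0659 (SD, n = 8) of an adult list were at collagen genes.

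The same Fisher's exact test called 6.15% of all 367750 regions higher in spermatogonia and 1.91% higher in adult cells, or 46.8% and 14.5% of the regions with peaks in 5 to 11 libraries. Among the 1452 collagen regions 261 were tested, 164 (11.3%) were called higher in spermatogonia and 19 (1.31%) higher in adult cells. Outside the promoter windows lay 145 of the 164 and 18 of the 19, and 1396 of the 1452 collagen regions (96.1%) were outside. Of the 56 regions in a promoter window 33.9% were called higher in spermatogonia, and of those outside 10.4%. More of the promoter regions could be tested, 28 of 56 against 233 of 1396. Of the regions tested, the shares called higher in spermatogonia were close, 67.9% and 62.2%. Introns held 96 and 10 of the calls, intergenic sequence 30 and 3, promoters 17 and 1, upstream sequence 14 and 1, and exons 7 and 4. The promoter region called higher in adult cells was that of Col9a3 (chr2:180597734-180598727, 3 against 8). With the adjustment over regions it passed at 0.0418, as did the promoter regions of Col1a1, Col1a2 and Col11a1 (8 against 3) in the other direction (Fisher's exact test), whereas over genes the same counts gave 0.0545. Promoter regions of Col13a1, Col18a1 and Col24a1 were also called higher in spermatogonia (6 against 0 each, adjusted p = 0.0199, Fisher's exact test). These genes were not called in the test over genes. At least 1 region higher in spermatogonia was found at 33 of the 42 genes, at least 1 higher in adult cells at 14, both at 10 and neither at 5. The same share was not counted over all genes. A gene with many regions has more chances to hold a call, so these counts say nothing particular to collagens. Col9a1 and Col28a1, without a promoter peak in any library, had 3 and 4 regions called higher in spermatogonia. Without cKit Scml2-KO replicate 2 the number of called collagen regions rose from 183 to 275, and without the 4 lists of fewer than 30000 peaks it was 55. Over all regions the calls moved in the same way, from 29640 to 42889 and to 8813.

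**Figure D4:**
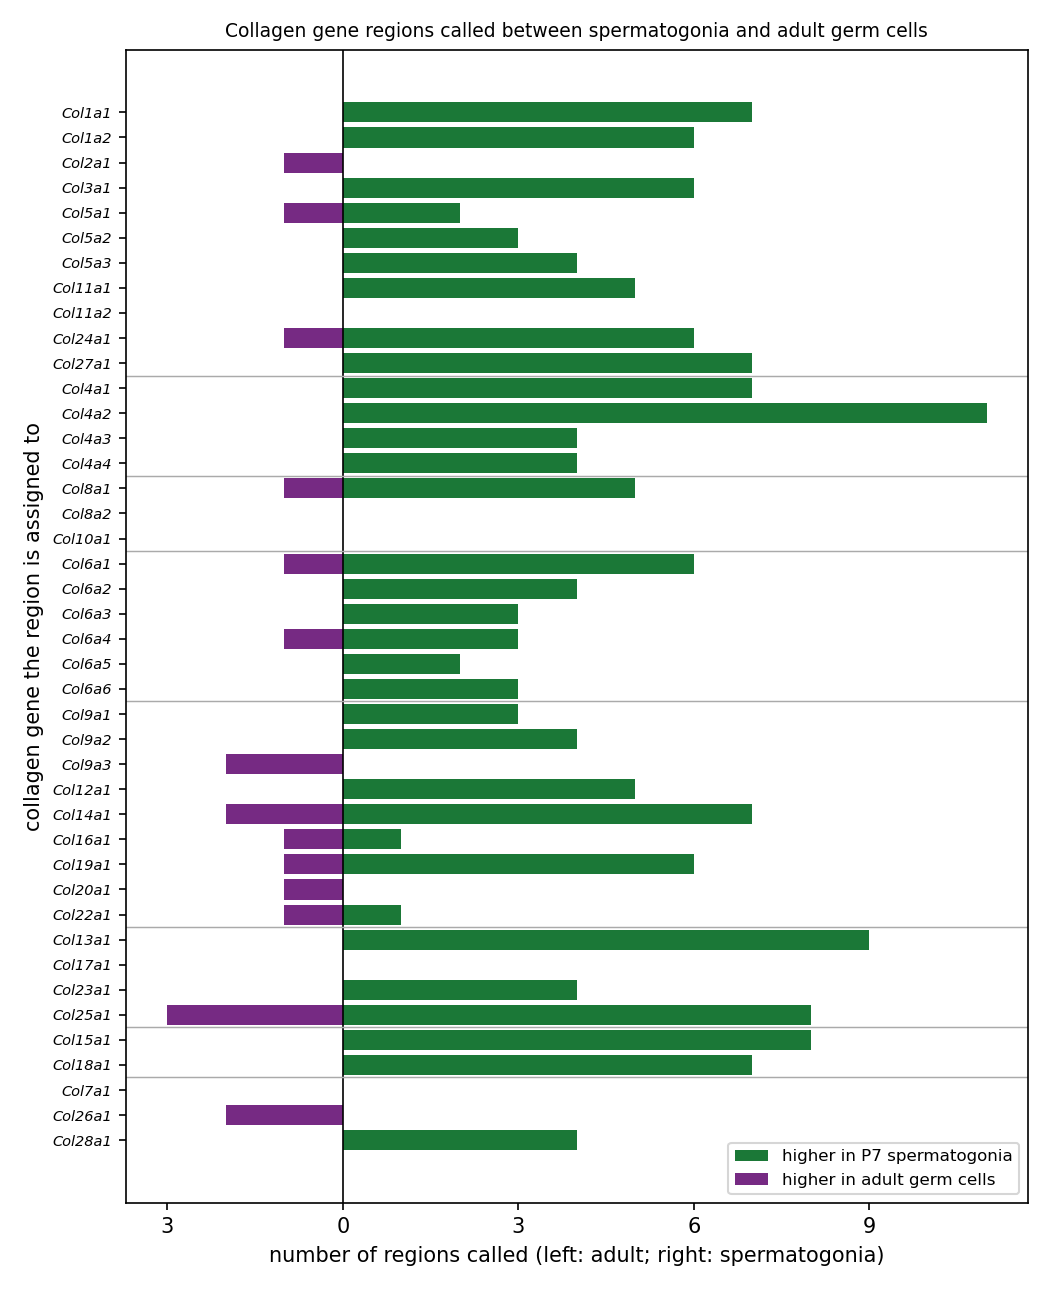
Number of regions assigned to each collagen gene (rows, grouped by class) that were called higher in P7 spermatogonia (green, to the right) or in adult germ cells (purple, to the left) by Fisher's exact test at an adjusted p of 0.05. Col4a2 has 11 green regions, and Col25a1 has 8 green and 3 purple ones.

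Among regions called higher in spermatogonia, the Col12a1 promoter had the highest median fold, 14.3. Next came an intergenic region 56.1 kb from the Col15a1 TSS (chr4:47151473-47152305, mm10), with folds of 19.3, 10.9, 17.3 and 13.5 in Thy1 and 14.2, 7.71 and 13.3 in 3 cKit libraries and no adult peak (7 against 0, adjusted p = 0.00877, Fisher's exact test). An intronic region of Col4a2, 69.6 kb from its TSS (chr8:11382000-11382894), had folds of 4.72 to 24.1 in 8 spermatogonial and 0 adult libraries (adjusted p = 0.00402, Fisher's exact test). Introns of Col5a3 (chr9:20794126-20795136) and Col15a1 (chr4:47293582-47294696) had peaks in 7 spermatogonial and 0 adult libraries. Thus Col15a1 and Col4a2, whose promoters were not called, had distal regions that were.

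Of the regions called higher in adult cells, the 5 with the highest median folds lay inside genes. An intron of Col8a1, 58.4 kb from the TSS (chr16:57696035-57696682), had folds of 22.7, 9.05, 17.7 and 6.52 in PS and 18.8, 13.9, 24.6 and 4.33 in RS and no peak in spermatogonia (0 against 8, adjusted p = 0.00402, Fisher's exact test), although the Col8a1 promoter was called in the other direction. An intron of Col14a1 (chr15:55425896-55427026), 119 kb from the TSS, also had 0 against 8 libraries, with folds of 5.2 to 29.9 (adjusted p = 0.00402, Fisher's exact test). Introns of Col22a1 (chr15:71952111-71955016, 0 against 7) and Col26a1 (chr5:136836865-136837524, 0 against 6) and an exonic region of Col2a1 (chr15:97996333-97997027, 0 against 5) followed, with adjusted p of 0.00877, 0.0199 and 0.0418 (Fisher's exact test). The Col2a1 region had peaks in 4 PS libraries and 1 RS library. Whether these regions act on the collagen gene that they were assigned to was not measured.

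Between genotypes, the same exact conditional test could call 8560 regions, 0% were called and 100 (1.17%) had an unadjusted p of 0.05 or under. At collagen genes 30 were tested, and 1 had such a p: an intron of Col19a1 (chr1:24452319-24452923), with peaks in 5 wild-type and 0 Scml2-KO libraries (unadjusted p = 0.0417, adjusted p = 1 by the same exact conditional test). Its folds were 4.36 in Thy1, 4.15 in cKit, 9.81 in PS and 10.5 and 5.26 in RS.

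Genes that make, export, link, bind and break down collagen were followed as a list of 64. Of these, 7 were called higher in spermatogonia and 0 higher in adult cells, and 24 had a promoter peak in all 16 libraries. Over all genes 4.54% were called higher in spermatogonia, and 8333 of 21325 (39.1%) had a peak in all 16. Of 16 genes for modification and folding, 10 had a peak in every library, among them P4ha1 and P4hb, the subunits of prolyl 4-hydroxylase, and 0 were called. Serpinh1, the collagen chaperone HSP47, had 4 Thy1, 4 cKit, 0 PS and 3 RS libraries (adjusted p = 0.0545, Fisher's exact test). Of 11 genes for export and propeptide removal, only Pcolce, an enhancer of procollagen C-proteinase, was called (6 against 0, adjusted p = 0.0246, Fisher's exact test).

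None of 5 cross-linking genes was called, and Loxl1 had a peak in 16 libraries and Loxl2 in 0. Among 10 receptors, Ddr1, a collagen-binding receptor kinase, and Itga1, an integrin chain, were called, with 8 against 1 and 8 against 2 libraries (adjusted p = 0.00877 and 0.0246, Fisher's exact test). Of 15 basement membrane partners, the laminin chains Lama4 (8 against 1) and Lamb1 (7 against 0) and the linker Nid1 (8 against 0) were called, with adjusted p of 0.00877, 0.00877 and 0.00358 (Fisher's exact test). Of 7 genes for breakdown, Mmp2, a gelatinase, was called (7 against 1, adjusted p = 0.0304, Fisher's exact test). An adult library had a promoter peak for 12 to 16 of the 16 modification and folding genes and for 7 to 15 of the 42 collagens, a contrast that was not tested.

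Of 42 markers of somatic testis cells, 10 were called higher in spermatogonia and 0 higher in adult cells (4.54% and 1.56% of all genes). Others had like counts in both, such as Amh (5 against 5), Tagln (6 against 5), Des (7 against 8) and Fn1 (8 against 8). Of 10 Sertoli markers, 5 to 10 had a promoter peak in a spermatogonial library and 0 to 7 in an adult one, and Clu, Cst12 and Inha were called higher in spermatogonia. Of 7 peritubular and smooth muscle markers the ranges were 2 to 7 and 1 to 5 (Acta2 and Lmod1 called), and of 7 fibroblast and stroma markers 3 to 7 and 1 to 3 (Dcn called). Of 6 endothelial markers they were 2 to 4 and 0 to 2 (Cdh5, Kdr and Tek called), of 6 Leydig markers 0 to 4 and 0 to 1 (Nr5a1 called), and of 6 immune markers 0 to 3 and 0 to 1 (0 called). Pecam1 and Tie1 of endothelial cells, Cyp11a1 and Hsd3b1 of Leydig cells and Ptprc and Adgre1 of immune cells had no promoter peak in any library. Wt1, a Sertoli transcription factor, had a peak in 4 Thy1, 4 cKit, 0 PS and 4 RS libraries. The part of somatic cells in the collagen peaks was not tested.

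Most round spermatid markers and 4 of 8 spermatocyte markers separated adult from P7 libraries, but neither list separated PS from RS. Of 8 spermatocyte markers, all 8 had a promoter peak in every adult library, and 4 were called higher in adult cells (1.56% of all genes). Sycp1, Sycp3, Dmc1 and Mlh3 also had a peak in 4, 4, 5 and 7 of 8 spermatogonial libraries. They lay outside the tested range. Of 8 round spermatid markers, 7 were called higher in adult cells (1.56% of all genes), and a PS library had a peak at 6 to 8 of them. Acrv1 was not called (2 against 6, adjusted p = 0.196, Fisher's exact test). The 10 spermatogonial markers had 3 to 9 promoter peaks in a spermatogonial library and 3 to 9 in an adult one, with 0 called. The Thy1 promoter had a peak in 4 Thy1, 0 cKit, 1 PS and 1 RS libraries, and the Kit promoter in all 16.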

How the data were processed

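ATAC-seq peak lists of 16 libraries were used, 1 list per library, called by the authors in each library separately. Per the submitters' processing notes, the tools were Bowtie 1.1.1 and MACS2 2.1.0.20140616 and the build was mm10. Caller options are not given in the sources used. Each line was a summit, and lines of the same peak were joined. This gave 1111092 peaks after 576 mitochondrial lines of 1431525 were left out. The pileup was deposited as a signal value, coverage at the summit, and was not used in any result. The fold enrichment is a ratio deposited by the authors. The authors' significance columns are −log10 of p and of q. Each list's minimum −log10 q was between 1.3 and 2.09. Read numbers are unknown here. Replicate numbers follow the sample titles, since the deposited files carry other numbers for some libraries.

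Start sites, 23576 positions, came from the deposited transcripts. For a gene and library the highest fold among promoter peaks was taken. Genes and merged regions (peaks joined at an overlap of 1 bp) were tested as given beside the results, over all genes or regions, at an adjusted p of 0.05. Both tests were tested on simulated data. The computations used Python 3.11.15, numpy 2.4.6, pandas 2.3.3 and scipy 1.17.1.

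The members and lists were chosen with earlier results of these data known. A collagen gene was given with its folds when it was called between spermatogonia and adult cells, separated a stage step completely, had a genotype p of 0.05 or under, was among the 3 with peaks in the most libraries, or belonged to a divergent type IV pair. Others named with folds, such as Col9a3, were chosen after their values were seen. Regions were named when called and among the 5 with the highest median fold in each direction. Promoter sequences came from RefSeq (GRCm38.p6), 1 start site per gene, the one nearest to the deposited TSS. Col18a1 has 2 deposited start sites, and the one used, at 77113705, held 3 CG dinucleotides. Its spermatogonial promoter region lay at the other, 77166530, which held 12 CG dinucleotides, GGGCGG and CCAAT. The alternatives tried are given in the closing section.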

Additional observations from a re-analysis of the deposited data

Results flagged for a closer look

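The median percentile of the collagen promoter folds in cKit wild type replicate 2 was 22, below the other 3 cKit libraries, of which the nearest had 26.9. The gap was 0.831 of the range of the 4 libraries, which is above Dixon's 95% critical value for 4 samples. In all, 18 such groups were examined, and chance flags about 1 in 20.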

How the results depend on the processing

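The 12 collagen promoters called between spermatogonia and adult germ cells numbered 8 to 17 under 500-bp and 2-kb windows, summits in place of peaks, a −log10 q or a fold of at least 5, lists of equal length, no filter, and wild type alone. With lists cut to their 17813 best peaks, 13 were called, of which 6 were among the 12. Over all genes the calls rose from 1300 to 2126 in that setting, and these settings together gave 624 to 2126. Scml2-KO alone gave 0 collagens and 0 of all genes. In 1 genotype alone, the adjustment passes all genes with 4 against 0 libraries or none. Leaving out 1 library at a time gave 12 to 20 collagens, with 20 without cKit Scml2-KO replicate 2, and 1325 to 2411 calls over all genes. From Thy1 to cKit, wild type alone gave 1 and leaving out 1 library 0 to 1. Over all genes 51 became 441 and 52 to 149 in these settings. From cKit to PS the 5 genes became 2 with −log10 q of at least 5, 3 with a fold of at least 5, 2 with equal lists, 14 in wild type alone, and 5 to 12 leaving out 1 library. Wild type alone compares 2 with 2 libraries, and over all genes the count for this step rose from 503 to 1615. Under the −log10 q limit, the fold limit and equal lists that count rose to 582, 614 and 1109. From PS to RS, 0 became 1 with a 2-kb window, 1 in wild type alone, 2 in Scml2-KO alone and 0 to 1 leaving out 1 library. Over all genes 68 became 75, 631, 434 and 91 to 199 in the same order. An alternative chosen after seeing the data left out the 4 lists of fewer than 30000 peaks, and gave 12 promoters for spermatogonia against adult cells, 15 for cKit to PS, 3 for PS to RS and 55 regions. Over all genes the same counts were 1594, 1728 and 456, and over all regions 8813. The 183 regions became 95 with −log10 q of at least 5, 106 with a fold of at least 5, 41 with equal lists, and 129 to 275 leaving out 1 library, 275 without cKit Scml2-KO replicate 2. Fewer peaks enter under these limits. Over all regions 29640 became 15504 with the −log10 q limit, 17313 with the fold limit and 8010 with equal lists. Both genotype results stayed at 0 calls under every alternative run. The median promoter fold over genes and libraries was 6.76, and 6.53 with the peak nearest to the TSS. No direction reversed.

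Replicate numbers were not taken to pair the libraries, since the labels tie them to nothing shared. Over 28 pairs of groups, the deviations of same-numbered libraries had a correlation of −0.00312 to 0.425, over 0.1 in 18 pairs and above 0 in 27. Replicate 1 had the longer list in 8 of 8 groups. With the replicate number as a block, 17 collagen promoters were called, the 12 with Col1a1, Col1a2, Col11a1 and Col14a1 higher in spermatogonia and Col9a3 higher in adult cells, and 221 regions. Calls over all genes rose from 1300 to 2234 with this block, and over all regions from 29640 to 37582.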
